A study of Mus musculus with 18 samples.

Results

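Chemokines are small secreted proteins that steer the migration of leukocytes and other cells, and their receptors sit in the membrane of the cells that respond. The genes described here were chosen by symbol, as every row named Ccl, Cxcl, Cx3cl, Xcl, Ccr, Cxcr, Cx3cr, Xcr or Ackr followed by a number. They are 56 of the 28442 genes in the table, with 34 ligands, 18 receptors and 4 atypical receptors. They were measured by bulk RNA-seq in livers and tumors of Alb-R26Met mice, which carry a conditional mouse-human chimeric Met transgene at Rosa26 that Cre driven by Alb, the albumin gene, switches on in hepatocytes. Both groups carry the transgene and the Cre, so the livers are not wild-type tissue. The 6 livers came from mice without tumors, aged 52 to 71 weeks (median 56.5), and the 12 advanced tumors, all hepatocellular carcinoma (HCC), from mice aged 49 to 72 weeks (median 65). The mice were males, F1 of C57BL/6JRj and 129S2/SvPasOrlRj, and tumors 11 and 12 were taken from 1 mouse, so 18 samples stand for 17 mice. No sample was treated.

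Most chemokine receptors couple to inhibitory G proteins, and the gradient of a ligand gives a cell its direction. By convention, homeostatic chemokines such as CXCL12 are made steadily and hold cells in place, whereas inflammatory chemokines such as CXCL9, CXCL10, CCL2 and CCL5 are induced and recruit T cells, natural killer cells and monocytes. The atypical receptors bind chemokines without G protein signaling and mostly remove them. In the liver, sinusoidal endothelial cells, stellate cells, Kupffer cells, cholangiocytes and hepatocytes are all known to produce chemokines, while most of the receptors are carried by leukocytes.

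The deposited values are TPM, relative transcript abundances corrected for gene length, rounded to whole numbers. A 0 therefore stands for any TPM that rounds to 0, and the reads behind a value are not known. Totals were 835144 to 884597 per liver and 845356 to 907513 per tumor. Tumor 2 stood apart: 1 gene, Siglece, took 82.9% of its total (livers 17.9% to 29.5%, the other tumors 21.5% to 53.4%), and 8718 genes were above 0 in it, against at least 11508 in every other sample. Values were therefore scaled between samples by a trimmed mean of M values. The factor was 0.1942 for tumor 2 and between 0.7875 and 1.426 for the others, so a rounded 1 in tumor 2 became a scaled value above 5. Results are also given without tumor 2. Hepatocyte markers were high in every sample, with summed scaled values of 36580 to 47790 in livers and 34640 to 72910 in tumors.

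Transcripts of this family were scarce. Of the 56 genes, 18 were listed at 0 in all samples, and 11 more never exceeded 1 TPM. The summed TPM of all 56 genes had a median of 152 in livers (lowest 123, highest 287) and 216.5 in tumors (lowest 20 in tumor 2, highest 369). Ligands made up nearly all of it, and the receptors and atypical receptors together summed to 2 to 7 TPM in livers and 1 to 20 TPM in tumors. In livers the highest means were those of Cxcl12, at 87.5 ± 18.99 TPM (SD, n = 6), and Ccl9, at 48.7 ± 29.8 (SD, n = 6), followed by Cxcl1 at 13 ± 24.5, Ccl6 at 6.33 ± 3.20 and Cxcl16 at 3.17 ± 1.60. In tumors the order was Ccl9 at 62.7 ± 32.0 TPM (SD, n = 12), Cxcl12 at 36.9 ± 22.7, Cxcl14 at 21.8 ± 17.1, Cxcl9 at 15.7 ± 22.8 and Cxcl1 at 12.6 ± 5.87. In livers, Cxcl12 exceeded Ccl9 by 38.8 TPM and Ccl9 exceeded Cxcl1 by 35.7, both more than the larger SD of the pair. The other neighbors in these orders, and all of those in tumors, differed by less than that SD. The order of means did not hold in every liver: in liver 1 Ccl9 was at 94 TPM and Cxcl12 at 90. Cxcl1 was at 63 TPM in liver 1, while its median over livers was 3. Cxcl12 made up a median of 55.6% of the family's TPM in livers and 18.2% in tumors, and Cxcl14 0.727% in livers and 7.37% in tumors.

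**Figure D1:**
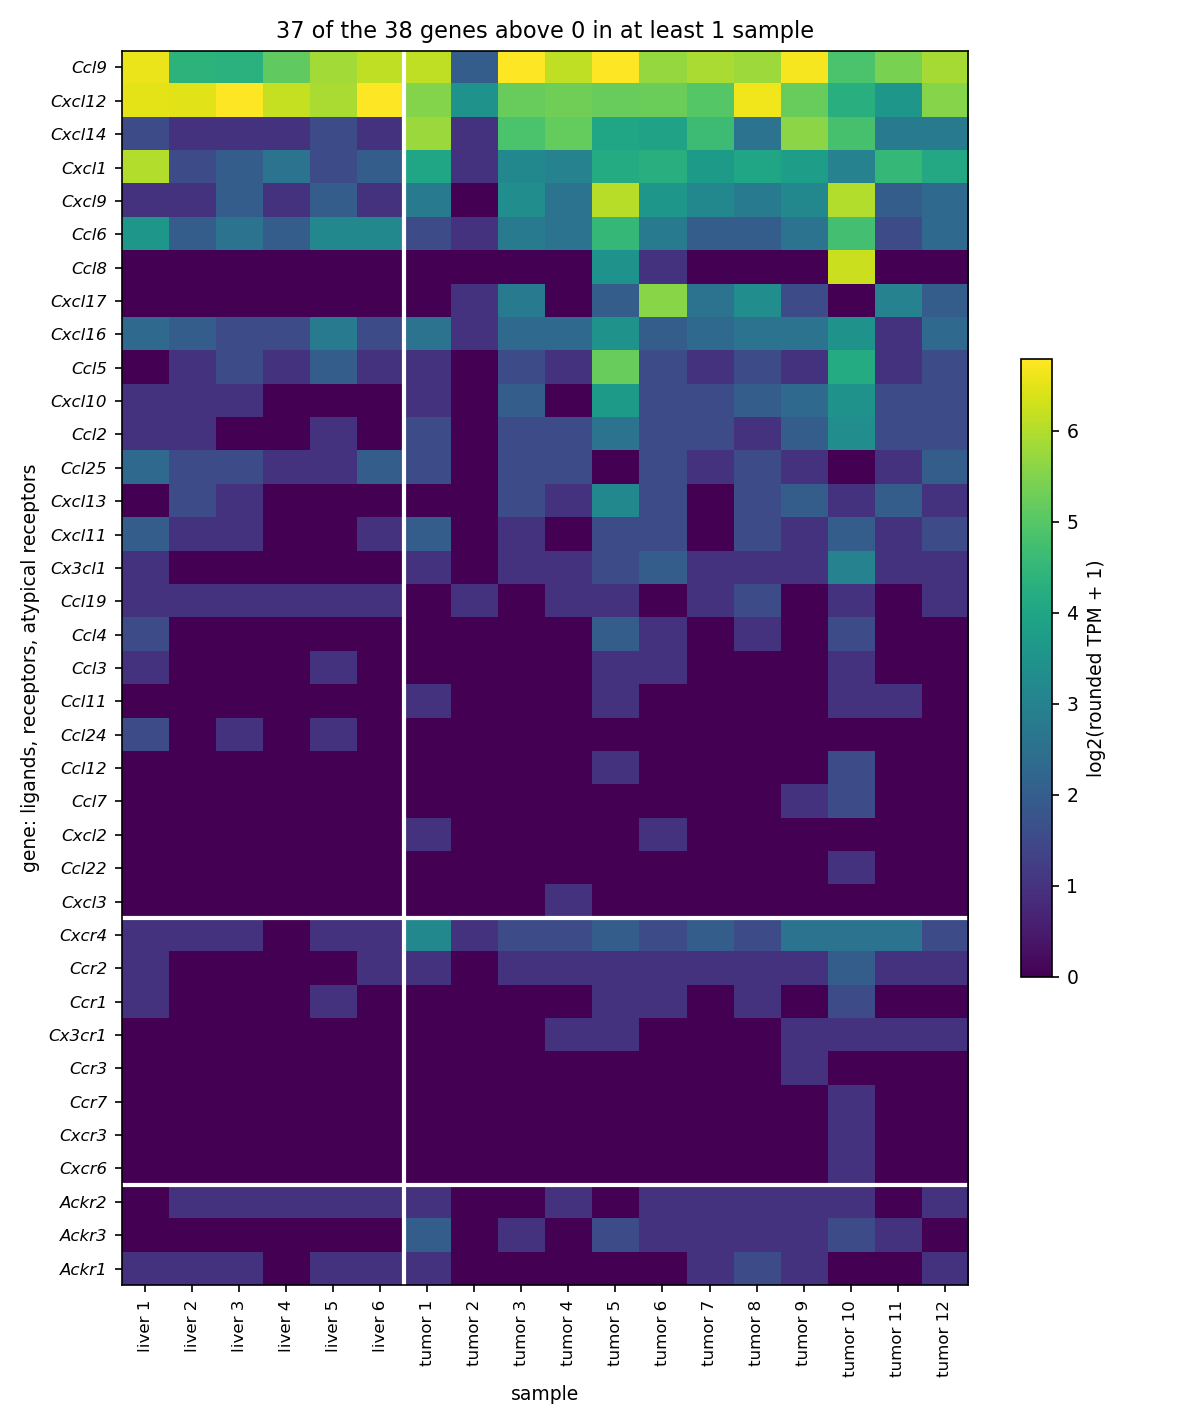
Rounded TPM on a log2 scale (color, log2 of TPM + 1) of 37 of the 38 genes above 0 in at least 1 sample, with samples in columns (6 livers, then 12 tumors) and ligands, receptors and atypical receptors in separate blocks, each ordered by mean. Ccl9 and Cxcl12 are high in most samples, Cxcl14 is low in all livers, the column of tumor 2 is dark, and tumors 5 and 10 hold the brightest cells of several ligands.

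Livers and tumors were compared by limma on log2(scaled TPM + 1), fitted over the 11708 genes that reached a scaled TPM of 1 in 6 or more samples. Fold changes on this scale understate the change of genes near 0. Of the 56 genes 18 were tested, 16 of them ligands. Among the 18, 6 had a Benjamini-Hochberg adjusted p under 0.05 and were higher in tumors (Cxcl14, Cxcl17, Cxcl9, Ccl2, Cx3cl1 and Cxcr4), where 9.81% of all tested genes were. Cxcl12 alone was lower, where 9.22% of all tested genes were. The median log2 fold change was 0.66 over the 18 genes and -0.06 over all genes tested. These counts are not over the whole family: 3 of the 18 (Cx3cl1, Cxcl10 and Cxcl17) had no liver at a scaled value of 1. They entered the test through tumors alone, and 2 of these 3 are among the 6 higher ones. The other higher genes also needed tumors to pass the filter: 1 liver reached a scaled value of 1 for Ccl2 and Cxcr4, and 3 livers for Cxcl9 and Cxcl14. All 6 higher genes thus passed it through the group in which they are high. The count of 6 and the median of 0.66 carry that choice and cannot be read as a trait of the family. Tissue was analyzed in bulk, so that fewer cells of a type and less RNA per cell cannot be told apart. The livers and tumors are separate mice but for tumors 11 and 12, and averaging these left the same count of 7.

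**Figure D2:**
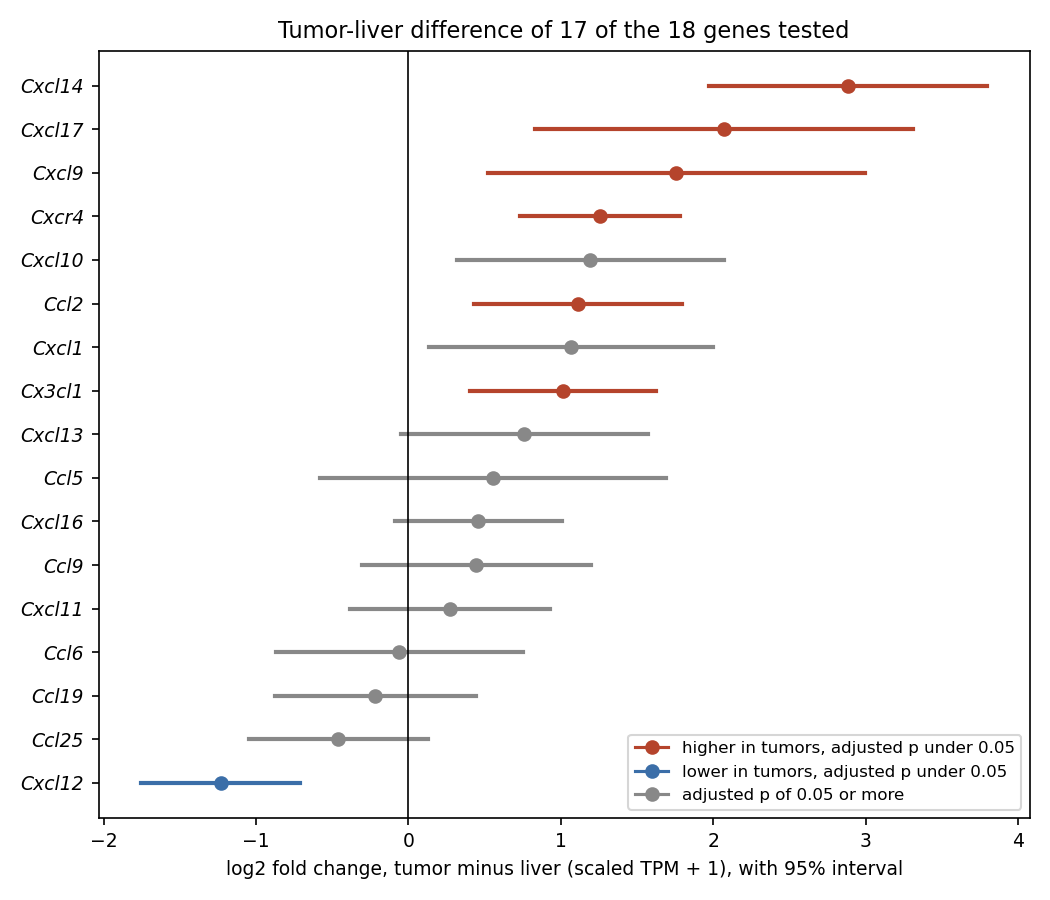
Log2 fold change, tumor minus liver, of 17 of the 18 genes tested, on scaled TPM + 1, with the 95% interval from limma (12 tumors, 6 livers). Of the 7 colored genes 6 lie to the right of 0, and Cxcl12 lies to the left. The place of Cxcl17 depends on the pseudocount, since all livers were listed at 0.

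The 250 bases before the RefSeq start of 4 genes are shown on their own strand, 5′ to 3′, to set 2 pairs side by side: Cxcr4 and its ligand Cxcl12, which moved in opposite directions, and Cxcl9 and Cxcl10, neighboring ligands of 1 receptor that were highest in the same tumors, of which Cxcl10 did not pass the test. The build is GRCm38.p6, and 5 of the 7 genes that differed had an entry. Capitals mark matches, on either strand, to the letters TATAAA of a TATA box, to GAAA, any 2 bases and GAAA again, the core of an interferon-stimulated response element (ISRE), and to the κB motif. Over all 32851 windows of this length, 12.4% held a TATAAA, 2.98% the ISRE letters and 3.9% the κB motif. The windows are chr1:128592300-128592549, minus strand, for Cxcr4, chr6:117168285-117168534, plus strand, for Cxcl12, chr5:92328080-92328329, minus strand, for Cxcl9 and chr5:92348890-92349139, minus strand, for Cxcl10.
Cxcr4: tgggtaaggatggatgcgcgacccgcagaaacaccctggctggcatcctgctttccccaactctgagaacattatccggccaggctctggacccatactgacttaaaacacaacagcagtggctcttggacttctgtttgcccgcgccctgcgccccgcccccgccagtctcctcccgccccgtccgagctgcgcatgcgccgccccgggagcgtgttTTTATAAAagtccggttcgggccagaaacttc
Cxcl12: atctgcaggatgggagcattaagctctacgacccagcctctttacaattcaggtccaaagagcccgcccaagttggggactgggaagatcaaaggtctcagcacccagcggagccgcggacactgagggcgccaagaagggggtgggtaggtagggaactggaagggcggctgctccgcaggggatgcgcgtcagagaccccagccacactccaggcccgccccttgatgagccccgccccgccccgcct
Cxcl9: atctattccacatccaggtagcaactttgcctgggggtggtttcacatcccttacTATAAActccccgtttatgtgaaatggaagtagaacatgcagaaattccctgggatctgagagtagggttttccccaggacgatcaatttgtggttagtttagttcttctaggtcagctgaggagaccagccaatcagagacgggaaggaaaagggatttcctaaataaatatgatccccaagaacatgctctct
Cxcl10: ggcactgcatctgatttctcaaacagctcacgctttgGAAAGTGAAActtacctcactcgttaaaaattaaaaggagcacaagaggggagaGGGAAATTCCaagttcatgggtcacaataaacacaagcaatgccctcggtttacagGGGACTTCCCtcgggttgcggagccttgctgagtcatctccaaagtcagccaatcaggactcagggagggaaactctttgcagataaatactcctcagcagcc

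Cxcl10 held 1 ISRE match, which begins 213 bases before the start, and 2 κB matches, which begin at 159 and 103 bases. Cxcl9 held a TATAAA that begins 195 bases before the start and no match to the other letters in this window. Cxcr4 held a TATAAA on each strand, overlapping each other, that begin 32 and 30 bases before the start, and Cxcl12 held no match. Among called genes not printed, Cx3cl1 held a TATAAA that begins at 6 bases. Cxcl14 held 1 ISRE match, which begins 172 bases before the start used for its window. That window, chr13:56296552-56296801, minus strand, lies within the RefSeq span of the gene, which ends at 56296811. The match of Cxcl14 is therefore not upstream of the outermost start. All of these are matches of letters, not tested sites.

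Among the homeostatic genes, the ligand Cxcl12 fell in tumors while its signaling receptor Cxcr4 rose. CXCL12 retains and attracts lymphocytes, progenitors and other CXCR4-bearing cells. Cxcl12 (Entrez 20315, chromosome 6 from 117168535 to 117181368) was at 60, 89 and 108 TPM (lowest, median and highest) in livers and at 10, 36 and 98 in tumors. All tumors but tumor 8, at 98 TPM, lay below the lowest liver. The fit gave a log2 fold change of -1.23 (SE 0.25, limma adjusted p = 0.00154), and -1.29 without tumor 2 (limma adjusted p = 0.000766). After scaling, tumor 2 was no longer the lowest, and Cxcl12 was called in all 18 fits that leave out 1 sample, as were Cxcr4, Cxcl14, Cxcl17 and Cx3cl1.

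Cxcr4 (Entrez 12767, chromosome 1 from 128588199 to 128592299) was at 0, 1 and 1 TPM in livers and at 1, 2.5 and 8 in tumors. Each tumor but tumor 2, at 1 TPM, was at 2 TPM or more and lay above every liver, which was at most at 1. The log2 fold change was 1.26 (SE 0.25, limma adjusted p = 0.00138), and 1.20 without tumor 2 (limma adjusted p = 0.00138). After scaling all 12 tumors lay above all 6 livers, which held for 2.17% of the genes tested, but for tumor 2 this rests on its factor. Values this low are coarse, since 1 TPM is the step of the table.

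The other homeostatic genes did not pass. Ccl19, a ligand of CCR7, was at 1 TPM in every liver and at 0 to 2 in tumors (log2 fold change -0.22, limma adjusted p = 0.703). Cxcl13, which attracts B cells through CXCR5, was at 0 to 2 TPM in livers and 0 to 8 in tumors (log2 fold change 0.76, limma adjusted p = 0.192). Ccr7 reached 1 TPM in tumor 10 alone, and Cxcr5 was listed at 0 in all samples. Cxcl12 is known to be made by stellate and endothelial cells. Of 5 stellate cell markers, 2 were lower in tumors (Lrat and Des), and their summed scaled level was 31.0 to 49.3 in livers and 22.0 to 64.2 in tumors. Of 5 general endothelial markers 3 were higher (Pecam1, Cdh5 and Tie1), and none of 5 sinusoidal markers was called. The summed scaled level of the sinusoidal markers was 28.9, 64.6 and 82.9 (lowest, median and highest) in livers. In tumors it was 16.5, 48.6 and 247, the last in tumor 2, whose values its factor enlarges. The part of these cells in the values of Cxcl12 was not tested.

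The epithelial chemokines gave the largest rise. CXCL14 is a chemokine of epithelia whose signaling receptor is not settled. Cxcl14 (Entrez 57266, chromosome 13 from 56288643 to 56296811) was at 1, 1 and 2 TPM in livers and at 1, 19.5 and 53 in tumors. The highest values were 53 TPM in tumor 1 and 48 in tumor 9, and all tumors but tumor 2, which was at 1 TPM, were at 5 TPM or more. The fitted fold was 7.39 (log2 fold change 2.89, SE 0.44, limma adjusted p = 8.84e-05), and 8.07 without tumor 2 (limma adjusted p = 4.50e-05). It was the only member called within each tag that the sample names carry, with a log2 fold change of 3.17 in E19 (7 tumors, 2 livers, limma adjusted p = 0.00809) and 2.28 in E20 (5 tumors, 4 livers, limma adjusted p = 0.0328).

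Cxcl17, a mucosal chemokine, was listed at 0 in all livers. In tumors it was at 0, 3 and 47 TPM, with 0 in tumors 1, 4 and 10 and 47 TPM in tumor 6, where the next highest, tumor 8, was at 9. It passed the threshold (limma adjusted p = 0.0176), and no fold is given because of the 0 in the livers. The tumors with most Cxcl17 were not those with most Cxcl14, and tumors 1 and 4, at 53 and 35 TPM of Cxcl14, had none. Ccl25, which attracts gut-homing lymphocytes, was at 1 to 4 TPM in livers and 0 to 3 in tumors and did not pass (log2 fold change -0.46, limma adjusted p = 0.286). Cholangiocyte markers, which mark the bile duct epithelium, were not called (0 of 1 tested), and their summed scaled level was 3.17 to 10.3 in livers and 3.50 to 15.5 in tumors. The 15.5 was in tumor 2, whose values its factor enlarges. Epcam was listed at 0 in every liver and Cldn4 in every sample. The part of bile duct cells in Cxcl14 and Cxcl17 was not tested.

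**Figure D3:**
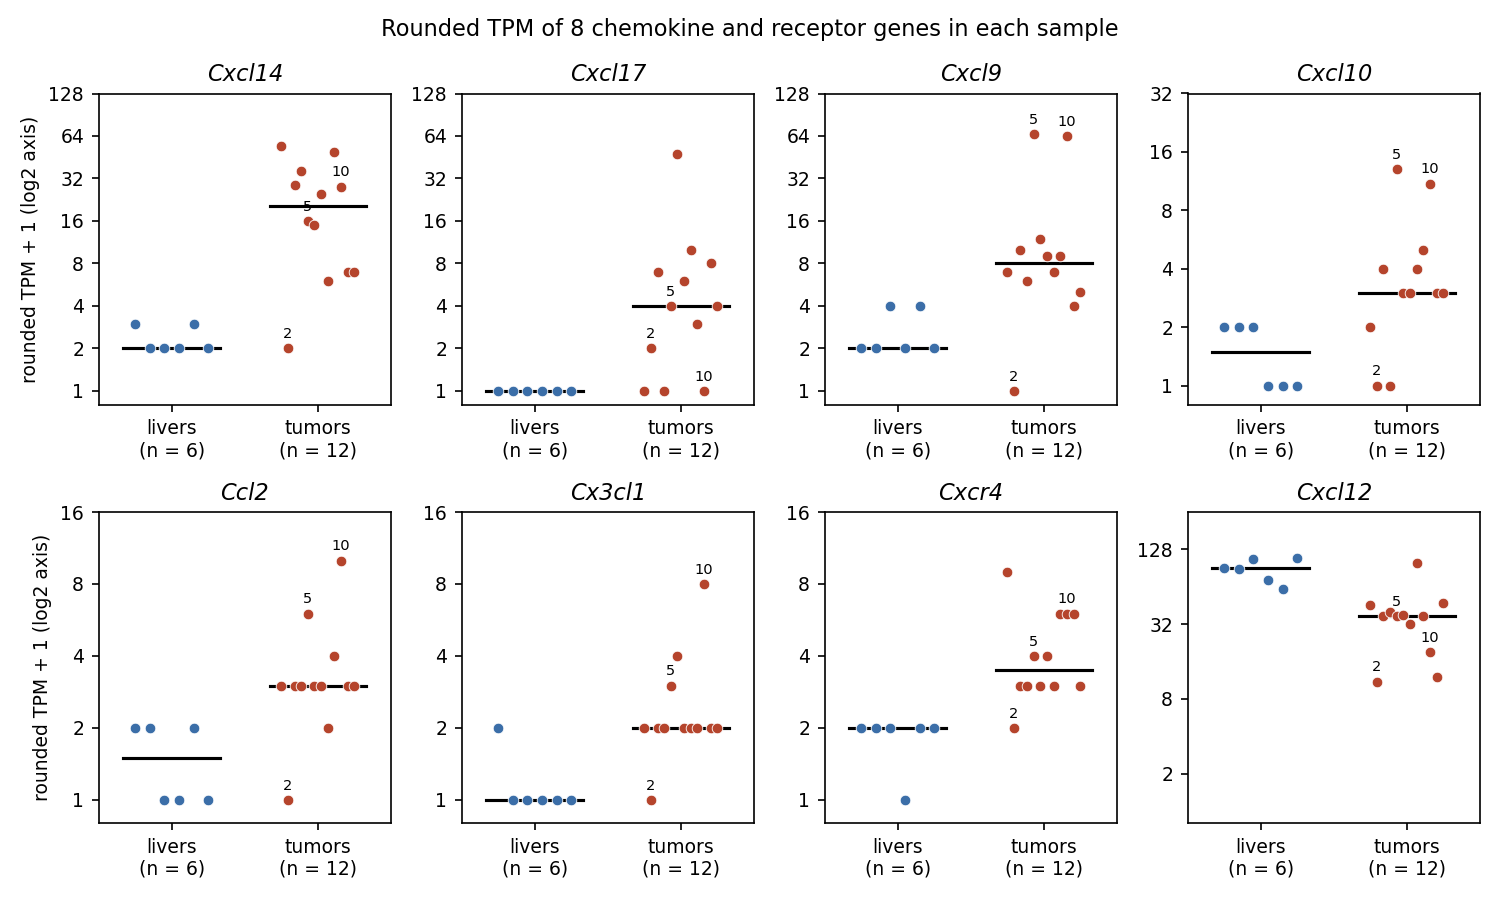
Rounded TPM + 1 (log2 axis) of the 7 genes that differed and of Cxcl10 in each sample, with livers in blue (n = 6) and tumors in red (n = 12). Black bars are medians, and the numbers mark tumors 2, 5 and 10. Cxcl14 exceeds 2 TPM in 11 of 12 tumors and in no liver, and Cxcl9 reaches 65 and 63 TPM in tumors 5 and 10, with the other tumors at 11 or below.

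Ligands of CXCR3, the receptor of activated T cells and natural killer cells, were led by Cxcl9. Cxcl9 (Entrez 17329, chromosome 5 from 92321331 to 92328079), an interferon-gamma-induced chemokine, was at 1, 1 and 3 TPM in livers and at 0, 7 and 65 in tumors. Tumors 5 and 10, at 65 and 63 TPM, stood far above the other tumors, which were at 0 to 11. The log2 fold change was 1.76 (SE 0.59, limma adjusted p = 0.0421), 2.03 without tumor 2 (limma adjusted p = 0.00594) and 1.21 without tumors 5 and 10 (limma adjusted p = 0.0451). This call was not firm. It was lost in 10 of the 18 fits that leave out 1 sample (livers 1, 2, 3, 4 and 6 and tumors 3, 5, 6, 7 and 9), where the limma adjusted p reached 0.0914.

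Cxcl10 (Entrez 15945, chromosome 5 from 92346638 to 92348889) showed the same tumors on top. It was at 0, 0.5 and 1 TPM in livers and at 0, 2 and 12 in tumors, with 12 TPM in tumor 5, 10 in tumor 10 and at most 4 in the others. It missed the threshold (log2 fold change 1.19, SE 0.42, limma adjusted p = 0.0521) and passed it without tumor 2 (limma adjusted p = 0.0154). Cxcl11 was at 0 to 3 TPM in both groups (log2 fold change 0.27, limma adjusted p = 0.613). The receptor Cxcr3 was at 1 TPM in tumor 10 and at 0 in every other sample.

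Among genes of monocyte recruitment, Ccl2 and Cx3cl1 rose. Ccl2 (Entrez 20296, chromosome 11 from 82035577 to 82037452) encodes the main ligand of CCR2. It was at 0, 0.5 and 1 TPM in livers and at 0, 2 and 9 in tumors, highest in tumors 10 (9 TPM) and 5 (5 TPM), and only tumors 2 and 8 lay within the range of the livers. Its log2 fold change was 1.11 (SE 0.33, limma adjusted p = 0.0208), and 1.26 without tumor 2 (limma adjusted p = 0.00247). It was not called without liver 3, 4 or 6 (limma adjusted p up to 0.0585). Ccl7 and Ccl12, further CCR2 ligands, were at 0 in livers and reached 2 TPM each, both in tumor 10. Ccr2 itself was at 0 to 1 TPM in livers and 0 to 3 in tumors, again highest in tumor 10, and was too low to be tested.

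Cx3cl1 (Entrez 20312, chromosome 8 from 94772180 to 94782427), or fractalkine, is a membrane-bound ligand that holds CX3CR1-bearing monocytes at the endothelium. Liver 1 had 1 TPM of it and the remaining livers 0. In tumors it was at 0, 1 and 7 TPM, with 7 in tumor 10, 3 in tumor 6, 2 in tumor 5 and 0 in tumor 2. Its log2 fold change was 1.01 (SE 0.29, limma adjusted p = 0.0187), and 1.12 without tumor 2 (limma adjusted p = 0.00391). The group medians are 1 rounding step apart. Its receptor Cx3cr1 was at 1 TPM in tumors 4, 5, 9, 10, 11 and 12 and at 0 elsewhere. Cxcl16, the other membrane-bound chemokine, was at 2 to 6 TPM in livers and 1 to 10 in tumors, where tumors 5 and 10 were both at 10 (log2 fold change 0.46, limma adjusted p = 0.250). Its receptor Cxcr6 was at 1 TPM in tumor 10 alone.

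The inflammatory CC ligands Ccl9, Ccl6 and Ccl5 were tested and not called. Ccl9, a CCR1 ligand, was at 19, 45 and 94 TPM in livers and at 3, 58.5 and 109 in tumors, and the ranges overlapped widely (log2 fold change 0.45, 95% interval -0.31 to 1.20, limma adjusted p = 0.441). Ccl6, also a CCR1 ligand, was at 3, 6.5 and 11 TPM in livers and at 1, 4.5 and 26 in tumors (log2 fold change -0.06, limma adjusted p = 0.938). Tumors 10 and 5, at 26 and 22 TPM, exceeded every liver, whereas the other tumors were at 6 or below.

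Ccl5, made by T cells and natural killer cells among others, had the same shape. It was at 0, 1 and 3 TPM in livers and at 0, 1.5 and 36 in tumors, with 36 TPM in tumor 5, 17 in tumor 10 and at most 2 in the others (log2 fold change 0.56, limma adjusted p = 0.536). Below the filter, Ccl3 did not exceed 1 TPM, Ccl4 reached 3 in tumor 5, Ccl11 and Ccr3 reached 1 and Ccr1 reached 2 in tumor 10. Ccl24, an eosinophil attractant, was the 1 gene above 0 in livers only, at 2 TPM in liver 1 and 1 in livers 3 and 5. Ccl8 was the extreme case, at 75 TPM in tumor 10, 10 in tumor 5, 1 in tumor 6 and 0 in the other 15 samples.

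Neutrophil attractants that act on CXCR2 were represented by Cxcl1. Liver 1 held 63 TPM, the remaining livers 2 to 5, and the tumors 1, 14 and 22 (lowest, median and highest). All tumors but tumor 2 were at 7 TPM or more, above 5 of the 6 livers. The log2 fold change of 1.06 (SE 0.45) did not pass (limma adjusted p = 0.105). Without liver 1 it was 1.67 (limma adjusted p = 0.000284). Cxcl2 and Cxcl3 did not exceed 1 TPM, and Cxcl5, Cxcl15 and both receptors, Cxcr1 and Cxcr2, were listed at 0 in all samples. Neutrophil markers were low as well, with summed scaled levels of 0.940 to 5.77 in livers and 0 to 3.50 in tumors, and Mpo was listed at 0 in all samples.

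The atypical receptors were near the step of the table. Ackr3, which takes up CXCL12, was at 0 in every liver and at 1 to 3 TPM in 9 of 12 tumors, highest in tumor 1. It did not enter the test, and with no filter on low values it passed (limma adjusted p = 0.0125). Ackr1 was at 0 to 1 TPM in livers and 0 to 2 in tumors, and Ackr2 at 0 to 1 in both. Without the filter, Ccr2 was also higher (limma adjusted p = 0.0310) and Ccl24 lower (limma adjusted p = 0.0294). In that setting 10 of 38 genes of the family and 2422 of all 15568 were called. Ackr3 and Ccl24 were at 0 in every sample of 1 group, where rounding hides any spread. Ackr3, Ccl7, Ccl8, Ccl12 and Cxcl17 were above 0 in a tumor and at 0 in every liver. The same held, at no more than 1 TPM, for Ccl11, Ccl22, Ccr3, Ccr7, Cx3cr1, Cxcl2, Cxcl3, Cxcr3 and Cxcr6. The share of all genes with this pattern was not counted, so it cannot be read as a trait of the family. There were more tumors than livers in which a value could exceed 0.

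Genes listed at 0 throughout were the ligands Ccl1, Ccl17, Ccl20, Ccl26, Ccl28, Cxcl5, Cxcl15 and Xcl1, the receptors Ccr4, Ccr6, Ccr8, Ccr9, Ccr10, Cxcr1, Cxcr2, Cxcr5 and Xcr1, and Ackr4. Ccl22, a ligand of CCR4, reached 1 TPM in tumor 10 alone. These zeros cover any TPM that rounds to 0 and do not show that the genes were silent.

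The tumors differed among themselves. Tumor 10 alone was the highest tumor in Ccl2, Ccl6, Ccl8, Ccr2 and Cx3cl1. It also led, at only 1 or 2 TPM, in Ccl7, Ccl12, Ccl22, Ccr1, Ccr7, Cxcr3 and Cxcr6, and its total of 907513 was the highest. Tumor 5 led in Ccl4, Ccl5, Cxcl9, Cxcl10 and Cxcl13, among others. The share of all genes that each tumor led was not counted, so these leads cannot be read as a trait of the family. Tumor 1 led in Cxcl14, Cxcr4 and Ackr3, and tumor 8 in Cxcl12, Ccl19 and Ackr1. These ranks are on rounded TPM, and some leaders changed after scaling. Cxcl14 was then highest in tumor 9 (41.0 against 37.2 in tumor 1) and Cxcr4 in tumor 11 (6.35 against 5.61 in tumor 1). Cxcl9 was highest in tumor 10 (55.2 against 51.5 in tumor 5), and Ccl19 in tumor 2, through its factor. The 5 leukocyte markers moved with tumors 5 and 10: their summed scaled level was 58.7 and 67.5 there, against no more than 23.8 in any other tumor and a range of 17.1 to 33.6 among livers. Macrophage markers summed to 90.4 and 103, with no other tumor above 56.5 and livers between 32.9 and 82.9. The 6 T cell markers summed to 5.55 and 9.64, with 0 in every other tumor and 0 to 2.82 in livers. Kupffer cell markers summed to 66.6 in tumor 5 but to 11.4 in tumor 10, and mast cell markers, all at 0 in livers, to 56.1 in tumor 10 and 0 in tumor 5. The part of these cells in the chemokine values was not tested. The 7 calls were also made without tumors 5 and 10, a choice made after seeing the data.

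Markers of the other cell types were compared in the same fit. Among tested markers, 2 of 5 of Kupffer cells were lower (Clec4f and Marco), 1 of 6 of macrophages was higher (Cd14), 3 of 5 of fibroblasts were higher (Col1a1, Col1a2 and Col3a1) and 1 lower (Dcn), and 1 of 5 of hepatocytes was higher (Apoa1). None was called among leukocyte markers (5 tested), dendritic cells (3 tested), monocytes, neutrophils and B cells (1 tested each). No marker of T cells, natural killer cells or mast cells was expressed highly enough to be tested. The B cell marker Ms4a1 and the natural killer cell markers Ncr1 and Klrb1c were listed at 0 in all samples. Summed scaled levels in livers and in tumors were 4.48 to 7.58 and 2.54 to 10.3 for dendritic cells, 2.84 to 8.66 and 3.51 to 16.6 for monocytes, 0 to 7.52 and 0 to 3.50 for B cells, and 0 to 2.24 and 0 to 4.02 for natural killer cells. The 10.3 for dendritic cells was in tumor 2, whose values its factor enlarges.

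Downstream of the receptors, 44 of 54 genes of G protein coupling, desensitization and migration were tested, and 4 (9.09%) were higher and 1 (2.27%) lower, against 9.81% and 9.22% of all tested genes. The share of higher genes was thus near that of all genes, and the median log2 fold change was 0.03. Rasgrp2, an activator of Rap1 in integrin-mediated adhesion, rose from 9.33 ± 4.37 TPM (SD, n = 6) in livers to 29.7 ± 12.1 (SD, n = 12) in tumors (log2 fold change 1.69, limma adjusted p = 5.04e-06). Rgs2, which limits G protein signaling, rose from 1 ± 0.632 to 6.50 ± 5.87 TPM (log2 fold change 1.66, limma adjusted p = 0.00708), and Grk3, a kinase that desensitizes receptors including CXCR4, from 1 ± 1.55 to 3.75 ± 3.25 (log2 fold change 1.40, limma adjusted p = 0.00477). Gnai2, the inhibitory G protein subunit most used by leukocytes, passed narrowly (log2 fold change 0.66, limma adjusted p = 0.0426). Ptk2b, the kinase PYK2, fell from 12.7 ± 1.63 to 5.42 ± 3.34 TPM (log2 fold change -1.10, limma adjusted p = 0.00454). Dpp4, a protease that cleaves CXCL12, CXCL9 and CXCL10, was at 25.5 ± 4.68 TPM in livers and 14.9 ± 7.05 in tumors and did not pass (limma adjusted p = 0.0551).

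The tumor-liver difference was also compared between the tags E19 (2 livers, 7 tumors) and E20 (4 livers, 5 tumors), whose meaning the sources do not give. By the interaction term in limma, none of the 18 genes passed (0 at an unadjusted p under 0.05, lowest limma adjusted p = 0.97), and 0 of all 11708 genes passed (347 at an unadjusted p under 0.05). Within E19, Cxcl14, Cxcr4 (log2 fold change 1.57, limma adjusted p = 0.0309) and Cxcl12 (-1.35, limma adjusted p = 0.0477) were called. Within E20, Cxcl14 alone was, with Cxcr4 at 1.02 (limma adjusted p = 0.136) and Cxcl12 at -0.92 (limma adjusted p = 0.0771). All 7 genes kept their direction in both tags, which follows in part from their choice, since they were called over these same samples. Tumors 5 and 10 are both E19. The log2 fold change of Cxcl9 was 2.15 in E19 and 0.95 in E20, and neither passed (limma adjusted p = 0.162 and 0.437).

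Cxcl12 and its receptor Cxcr4 were set against each other across the tumors of 11 mice, with tumors 11 and 12 averaged. Of 10 ligand-receptor pairs chosen, 2 had both genes at a scaled TPM of 1 or more in 6 or more tumors, the other 8 were not computed, and 1 is reported here. For Cxcl12 and Cxcr4, Pearson's r was -0.401 (permutation p = 0.234, adjusted over the 2 pairs 0.234) and Spearman's rho was -0.391 (permutation p = 0.237, adjusted 0.237). Without the mouse of tumor 2, r was -0.629 (10 mice, permutation p = 0.034, adjusted 0.034), and over all 12 tumors it was -0.55 (permutation p = 0.0667, adjusted 0.0667). Without the 2 mice farthest from the median of Cxcl12, r was 0.102 (9 mice). The same removal left r at -0.25 over tumors (10 left) and at -0.41 without the mouse of tumor 2 (8 left). The size of the relation thus depends on single tumors. Within E19 r was -0.769 (7 tumors, exact permutation p = 0.0389) and rho was -0.75 (exact permutation p = 0.0663), and E20 had too few tumors (5).

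**Figure D4:**
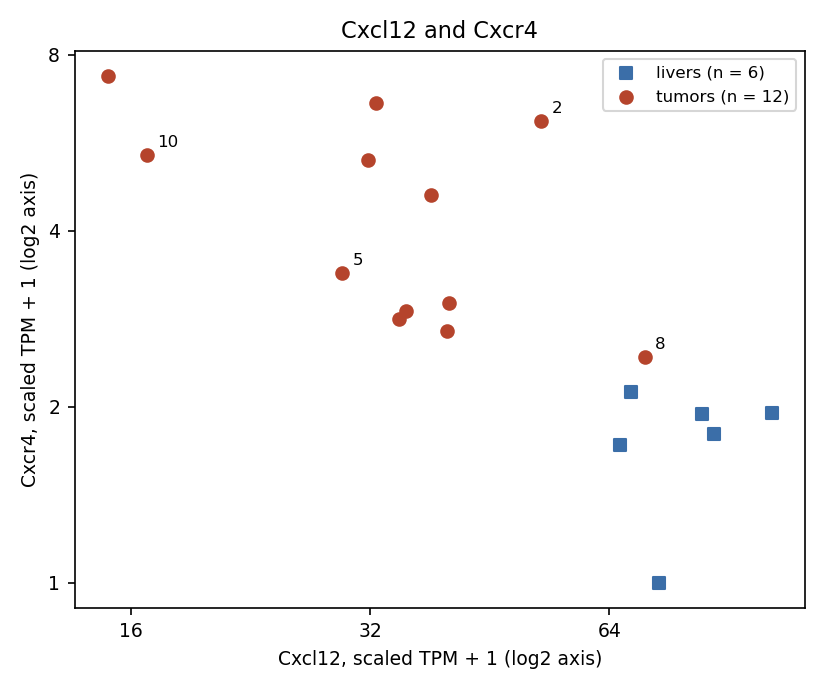
Scaled TPM + 1 of Cxcl12 (horizontal) against Cxcr4 (vertical), both axes on a log2 scale, with livers as blue squares (n = 6), tumors as red dots (n = 12) and tumors 2, 5, 8 and 10 numbered. The livers lie at high Cxcl12 and low Cxcr4, nearest to tumor 8.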

How the data were processed

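Bulk RNA-seq values of 6 livers and 12 tumors were used. Samples were grouped by their titles, and ages and mice were taken from the study's list of samples. For 2 tumors the mouse number differs between the labels and that list, and they were matched by tumor number and tag.

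From poly-A RNA, the authors obtained paired-end reads, which they aligned to GRCm38 and turned into TPM with Salmon. What they deposited is a score in whole numbers, named raw counts in the study. It was read as rounded TPM: for 882 of 900 values also given as TPM in a supplement, the rounded TPM was the deposited one, and no total exceeded 907513. Reads shared by alike genes, such as Ccl19 or the Ccl21 copies, cannot be told apart. TPM do not keep depth, so no counting intervals are given. In 8 lines an extra separator was repaired.

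The planned test depended on the unit, and limma took the place of a count test. Values were divided by a trimmed mean of M values factor (30% of M and 5% of A values trimmed), genes that reached 1 in 6 or more samples were tested, and log2(scaled value + 1) was modeled in limma 3.58.1 (R 4.3.3, variance trend) with Benjamini-Hochberg adjustment over all genes and a threshold of 0.05, where 1 is the pseudocount. The fit was tested on simulated data. Correlations used 100000 permutations in Python with scipy 1.17.1. Positions and promoters are RefSeq's on GRCm38.p6.

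Named are all genes of the family that were called, the 5 highest in each group, the other tested genes, and those below the filter with their highest value. From the list of receptor signaling, the called genes and Dpp4 are named, the last after its values were seen. The values of 1 gene of the family and of 1 marker are not reported here. The members and lists were chosen with earlier results of these data known. Alternatives covered scaling, filter, pseudocount, tag, age, replicate block, the 2 tumors of 1 mouse, sample weights, an exact rank-sum test and each sample left out.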

Additional observations from a re-analysis of the deposited data

Results flagged for a closer look

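Among the 23 genes whose values varied between the 6 livers, 7 had a highest or lowest liver whose gap to the nearest other, as a share of the range, exceeded Dixon's 95% critical value for 6 samples. With continuous values chance flags about 1 in 20 groups, a rate that does not apply to values rounded to 0 or 1 TPM, where a single differing liver always gives a gap of 1.0. Cxcl1 reached 63 TPM in liver 1 where no other liver exceeded 5, a gap of 0.951 of the range. Liver 1 was also the highest in Cxcl11 (3 TPM against at most 1, a gap of 0.667), in Ccl4 (2 TPM against 0, a gap of 1.0) and in Cx3cl1 (1 TPM against 0, a gap of 1.0). At the low end, Ackr2 was at 0 in liver 1 and Ackr1 and Cxcr4 were at 0 in liver 4, with 1 TPM in all other livers and a gap of 1.0 in each. In the 6 genes other than Cxcl1 the gap was 1 or 2 TPM.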

How the results depend on the processing

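Of the 56 genes 18 were tested and 7 called, against 2229 of all 11708 genes tested. With at least 1 in 12 samples, 4 of 10 genes of the family and 1824 of all 10300 were called. The count was 3 with E19 samples alone (1505 of all 11708), 1 with E20 samples alone (533) and 11 with sample quality weights (4704). When each sample was left out it ran from 5 to 8, and over all genes from 1709 to 3120, the last without tumor 2. Without scaling, 9 of 24 genes of the family and 1341 of all 13309 were called. Without scaling the median log2 fold change of all genes was -0.18 instead of -0.06. Same-numbered livers and tumors correlated with each other by -0.137 to 0.432 over 6 pairs (mean 0.173). Differently numbered ones had a mean of -0.0392 over 30 pairs. The numbers were not taken to pair samples, since the livers and tumors came from separate mice. With the replicate block over livers and tumors 1 to 6, limma called 5 of the family and 1566 of all genes, and the same 12 samples with no replicate block gave 3 and 1426. For the difference between tags, none of the family was called with or without scaling or when each sample was left out, and over all genes 1 was called without liver 5 and 1 without tumor 2. The correlation of Cxcl12 and Cxcr4 passed without the mouse of tumor 2 (r = -0.629 over 10 mice, permutation p adjusted 0.034). No named gene that was called changed direction. In 203 refits they kept their call and in 31 they lost it, and the genes not called gained one in 10 refits and not in 358. The cause was not tested where fewer samples or genes do not show it. Precision is limited by the rounding to 1 TPM and by the number of livers.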

Other observations

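Over the 18 samples, the genes whose log2 scaled values were most like those of Cxcl14 were Calml4 (Pearson's r = 0.902), Smpdl3b (r = 0.898) and Cldn3 (r = 0.894). Livers and tumors are pooled in these values, so the difference between the groups is part of the likeness. Calml4 was at 0 to 2 TPM in livers and 1 to 32 in tumors, Smpdl3b at 0 in livers and 0 to 3 in tumors, and Cldn3, a claudin of tight junctions, at 40 to 108 in livers and 12 to 139 in tumors.

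Among chemokine genes that the choice by symbol leaves out, no difference passed the threshold. Of 8 in the table, 3 were tested and none was called: Ccl27a, at 6.67 ± 2.94 TPM (SD, n = 6) in livers and 3.42 ± 1.93 (SD, n = 12) in tumors (limma adjusted p = 0.0651), Pf4 (limma adjusted p = 0.435) and the atypical receptor Ccrl2 (limma adjusted p = 0.472). Ccl21b, Ccr1l1 and Pitpnm3 were listed at 0 in all samples.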
